A study of Mus musculus with 4 samples.

Results

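The 10 genes of iron handling and haem synthesis described here were read in the brain cortex of SAMP8 mice, an inbred strain with accelerated ageing and early memory deficits. The genes are Alas1 and Fech of haem synthesis, Hmox2 of haem breakdown, Tfrc and Slc11a2 of iron uptake, Fth1 and Ftl1 of storage, Slc40a1 and Cp of export, and Ireb2 of regulation. They were chosen by gene symbol with earlier results of these arrays in view, and the comparison of TCQA with control is part of how they were chosen. Their differences between the groups are therefore given as a description, with no test. All 10 symbols had a probe set, among 22206 gene probe sets in all.

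The mice were males, kept 1 to a cage for 4 months after reaching 7 months. The TCQA group then took 5 mg/kg of TCQA by mouth each day for 1 month, from 11 months of age, and the control group took MilliQ water over the same month. Each group had 2 Clariom S arrays, a 1-colour microarray of well-annotated mouse genes, and each value is a log2 signal, so that a difference of 1 is a 2-fold change. Whether the pair of arrays in a group stands for separate mice is not stated in the labels, so the spread between them may be technical.

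Cells take up iron bound to transferrin through the transferrin receptor, store it inside ferritin shells and release it through ferroportin, while a ferroxidase oxidises it outside the cell. Haem is built in and around the mitochondrion, from the condensation that ALAS carries out to the insertion of iron by ferrochelatase, and haem oxygenases open the ring and free the iron again. When iron is scarce, the iron regulatory proteins bind stem-loops in messenger RNAs, which blocks translation of the ferritins and ferroportin and protects the messenger of the transferrin receptor. Iron builds up in the brain with age, and oligodendrocytes, microglia and the cells around vessels handle much of it.

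The 10 genes did not move as a group. Of the 10, 5 had a higher and 5 a lower mean with TCQA, with a median log2 difference of 0.02, against 0.01 over all gene probe sets, of which 51.1% had a higher mean. The 2 TCQA arrays lay above both control arrays for 4 genes, Hmox2, Ireb2, Cp and Fth1, where 18.9% of all gene probe sets did so. Of these 4 Fth1 did so in the values as deposited but not after quantile normalization. They lay below both for 1 gene, Fech, where 17.8% of all did so. The groups overlapped for the other 5, while 36.6% of all gene probe sets had groups apart in either direction. No gene of the array passed limma with Benjamini-Hochberg adjustment (0 of 22206, 0%), and 1386 had an unadjusted p under 0.05 (6.24%), of which 750 were higher (3.38%) and 636 lower (2.86%). An unadjusted p under 0.05 with a change over 2-fold, the depositors' criterion, was met by 83 (0.374%), and by 160 (control replicate 1 left out) to 291 (TCQA replicate 2 left out) with 3 arrays. None of the 10 genes differed by as much as 2-fold.

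**Figure D1:**
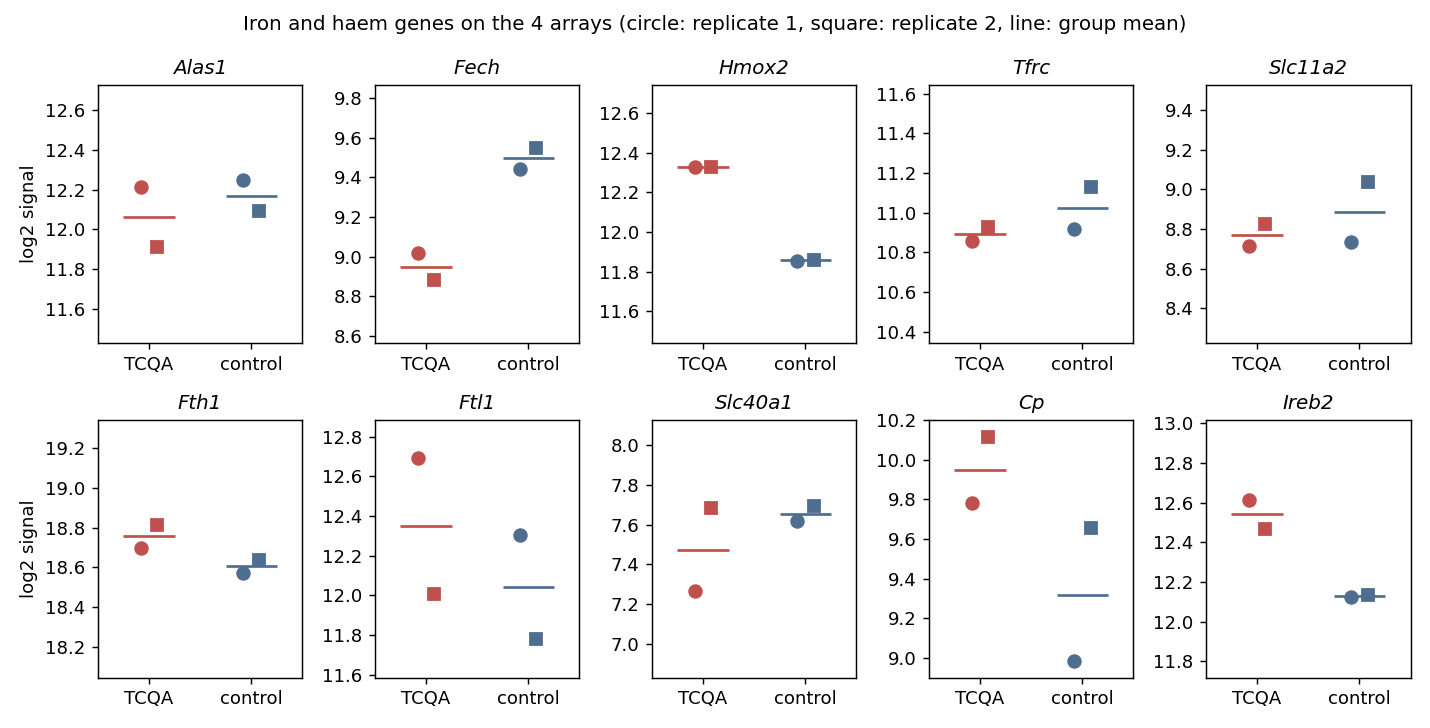
Log2 signal of each of the 10 genes on the 4 arrays, with TCQA on the left and control on the right of each panel and a line at each group mean. Every panel spans the same range of log2 units, so the gap between the groups can be compared across genes: it is widest for Cp, at 0.63, and the groups stand apart for Fech, Hmox2, Fth1 (as deposited, not after quantile normalization), Cp and Ireb2.

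Haem synthesis begins with Alas1 and ends with Fech. Alas1 (probe set TC0900003004.mm.2) encodes the housekeeping form of the first and rate-limiting enzyme. It had log2 signals of 12.21 and 11.91 with TCQA, against 12.25 and 12.09 in control. The groups overlapped, and the difference was -0.11 (SE 0.20), smaller than the gap between the TCQA arrays. Fech (TC1800001461.mm.2) encodes ferrochelatase, which puts iron into protoporphyrin. Its log2 signals were 9.02 and 8.88 with TCQA and 9.44 and 9.55 in control, so both TCQA arrays lay below both control arrays. The difference of -0.55 (SE 0.18), 1.46-fold lower with TCQA, was several times the spread within a group, where the SDs were 0.10 with TCQA and 0.08 in control (n = 2 each). A difference at least as large, in either direction, was found for 5.86% of all gene probe sets. With each array left out in turn it lay between -0.61 and -0.48. For a gene whose groups do not overlap, leaving out an array cannot turn the direction.

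Red blood cells also carry haem synthesis transcripts, and a cortex sample holds some blood. In tissue samples like these, fewer cells of a type and less RNA per cell cannot be told apart. Of 14 erythroid markers 8 were measured, and 6 of these lay below the median negative control probe set, 7.23, in both groups. So did 11045 of all 22206 gene probe sets. The 8 erythroid markers had mean log2 signals of 6.31 and 6.41 on the TCQA arrays, against 6.38 and 6.55 on the control arrays. With TCQA 3 of the 8 were higher and 5 lower. The groups were apart for 1 in each direction, as for 18.9% (higher) and 17.8% (lower) of all gene probe sets. Rhag, below the negative control median in both groups, had the largest difference, at -0.72, with both TCQA arrays lower. The erythroid enzyme gene Alas2, which the haem synthesis list below also holds, was among the dim ones, at 6.78 and 6.51 with TCQA and 6.57 and 6.77 in control. Slc4a1, the anion exchanger of the red cell membrane, was at 8.59 and 8.53 with TCQA and at 8.38 and 8.88 in control. The haemoglobin genes on the erythroid list matched no named probe set, and the part of blood in the Fech difference was not tested.

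Hmox2 (TC1600000033.mm.2) encodes the constitutive haem oxygenase, abundant in neurons, which turns haem into biliverdin, carbon monoxide and free iron. Its log2 signals were 12.33 and 12.33 with TCQA, against 11.85 and 11.86 in control. The arrays of each group almost coincided, with a pooled SD of 0.00408, and 99.9% of all gene probe sets had a pooled SD at least as large. The difference was 0.47 (SE 0.17), 1.39-fold higher with TCQA, and 9.13% of all gene probe sets differed by as much. The SE is that of limma, which draws the spread of a gene towards that of all genes, and so exceeds what these 4 values alone would give. Leaving out any array in turn gave 0.47 to 0.48.

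Iron uptake was represented by a receptor and a transporter, and neither stood apart between the groups. Tfrc (TC1600000447.mm.2), the transferrin receptor, gave 10.86 and 10.93 on the log2 scale with TCQA and 10.92 and 11.13 in control. The difference was -0.13 (SE 0.18), with control replicate 1 lower than one of the TCQA arrays. Slc11a2 (TC1500002238.mm.2) encodes DMT1, which moves ferrous iron across the endosomal membrane. It was at 8.71 and 8.82 with TCQA and at 8.74 and 9.04 in control, a difference of -0.12 (SE 0.19). For both genes control replicate 2 was the highest array, and without it the differences were -0.02 for Tfrc and 0.03 for Slc11a2. Brain capillaries are rich in the transferrin receptor, and the endothelial markers, 7 of 10 higher, had mean log2 signals of 10.50 and 10.63 on the TCQA arrays and 10.45 and 10.36 on the control arrays. Their part in the Tfrc values was not tested. The Tfrc messenger and some messengers of Slc11a2 carry stem-loops for the iron regulatory proteins after the coding sequence.

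Ferritin is a shell of heavy and light chains. Fth1 (TC1900000183.mm.2), the heavy chain with ferroxidase activity, was at log2 signals of 18.70 and 18.82 in TCQA cortex and 18.57 and 18.64 in control. The groups did not overlap, but the difference of 0.15 (SE 0.17), 1.11-fold higher with TCQA, was no larger than that of 54.5% of all gene probe sets. It was also tied to the scaling. The signal of Fth1 ranked 10 or 11 from the brightest on every array, and after quantile normalization, which gives the same value to the same rank, the difference was 0. Ftl1 (TC0700003006.mm.2), the light chain, was at 12.69 and 12.01 with TCQA and at 12.30 and 11.78 in control. Its groups overlapped, and the difference of 0.31 (SE 0.30) was smaller than the gap between replicates in either group. Without TCQA replicate 1 it was -0.04. Ferritin genes have many processed copies in the mouse genome, and signal from them cannot be told apart from these genes here.

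Oligodendrocytes hold much of the ferritin of the brain. Their 9 measured markers had a mean log2 signal of 11.20 and 11.42 on the TCQA arrays and 11.26 and 11.28 on the control arrays, and 5 were higher and 4 lower with TCQA. The microglia markers, 7 of 9 higher, had means of 8.64 and 8.65 with TCQA and 8.49 and 8.58 in control. Their part in the ferritin values was not tested.

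Export needs a transporter and a ferroxidase. Slc40a1 (TC0100002285.mm.2) encodes ferroportin, the iron exporter of vertebrate cells. Its log2 signals were 7.26 and 7.68 with TCQA, against 7.62 and 7.70 in control, not far above the median negative control probe set, which was 7.17 to 7.32 on the 4 arrays. The difference of -0.18 (SE 0.21) came from TCQA replicate 1, without which it was 0.03. Cp (TC0300000137.mm.2) encodes ceruloplasmin, the copper ferroxidase that works beside ferroportin and that astrocytes carry on their membrane. It was at 9.78 and 10.12 with TCQA and at 8.99 and 9.65 in control. Both TCQA arrays were above both control arrays, yet the control arrays lay further apart than their higher one lay from the lower TCQA array. The difference of 0.63 (SE 0.27), 1.55-fold higher with TCQA, was the largest of the 10, and 3.54% of all gene probe sets differed by as much. Leaving out control replicate 1 gave 0.30, and leaving out control replicate 2 gave 0.96.

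**Figure D2:**
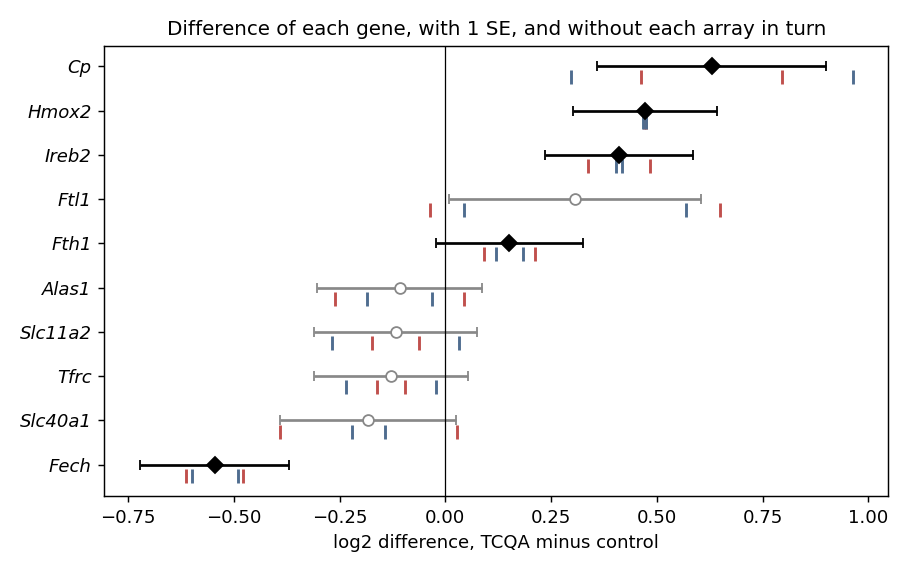
Log2 difference of TCQA minus control for each of the 10 genes, with bars of 1 SE from limma. Black diamonds mark genes whose groups did not overlap, open circles those whose groups did (Fth1 also overlaps after quantile normalization), and the short ticks under each gene show the difference without each TCQA array (red) and each control array (blue). The ticks of Hmox2 lie at 0.47 to 0.48, those of Cp spread over 0.30 to 0.96, and those of Alas1, Slc11a2, Slc40a1 and Ftl1 cross 0.

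Cp is transcribed in astrocytes, choroid plexus and the meninges, so the markers of these cells were read beside it. The astrocyte markers were higher with TCQA in 8 of 10, with mean log2 signals of 12.25 and 12.46 on the TCQA arrays and 12.13 and 12.21 on the control arrays. Among them Aqp4, the water channel of astrocyte end-feet, was at 12.77 and 12.88 with TCQA and 12.34 and 12.56 in control. The meningeal markers were higher in 10 of 10, with means of 8.25 and 8.44 with TCQA and 7.47 and 8.11 in control. The choroid plexus markers had means of 6.91 and 7.54 with TCQA, against 6.17 and 7.91 in control, and were higher in 4 of 11. Unlike Cp, they were highest on control replicate 2, for 7 of the 11, where 5374 of all 22206 gene probe sets were. Control replicate 1, the lowest array for Cp, was also the lowest for 6 of the 10 astrocyte, 8 of the 10 meningeal and 8 of the 11 choroid plexus markers. It was the lowest for 6027 of all 22206 gene probe sets. Ttr, which the choroid plexus makes in very large amounts, was at 12.23 and 14.97 with TCQA and at 7.49 and 16.42 in control. The part of these cells in the Cp difference was not tested.

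**Figure D3:**
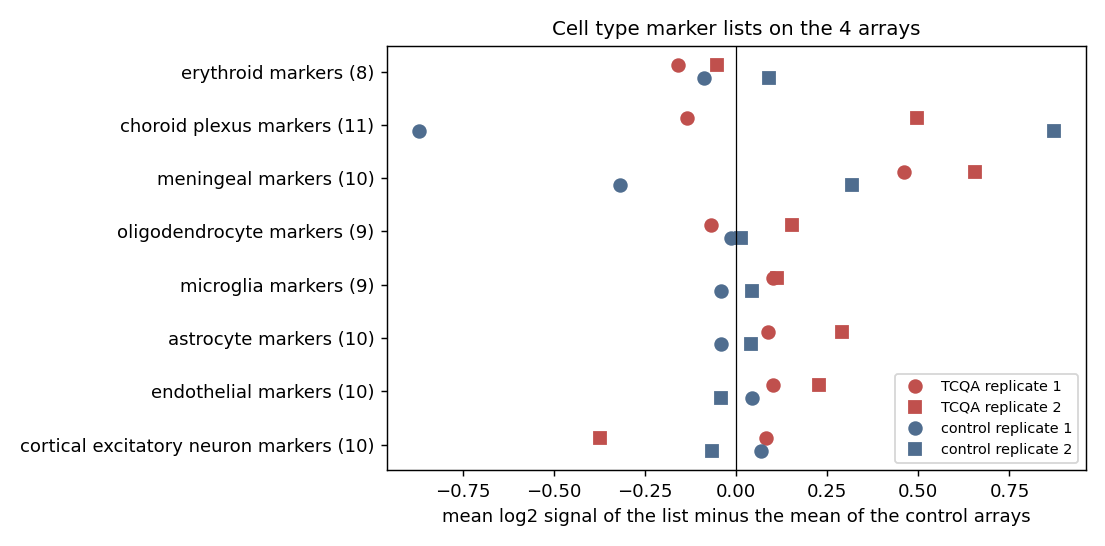
Mean log2 signal of each list of cell type markers on each array, as the distance from the mean of the control arrays, with TCQA in red above control in blue, circles for replicate 1 and squares for replicate 2, and the number of probe sets in brackets. The control arrays are far apart for the choroid plexus markers, at 6.17 and 7.91, and both TCQA arrays lie above both control arrays for the meningeal, microglia, astrocyte and endothelial markers.

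Cortical tissue itself was well represented. All 10 probe sets of excitatory neuron markers lay above the median negative control, and Slc17a7, the vesicular glutamate transporter of cortical neurons, was at 16.39 and 16.02 with TCQA and at 16.68 and 16.38 in control. Of the 10 probe sets 3 were higher and 7 lower with TCQA, with the groups apart for 2 of the lower and 0 of the higher. Over all gene probe sets 17.8% were apart and lower and 18.9% apart and higher. The list had means of 11.66 and 11.20 with TCQA and 11.64 and 11.51 in control. The lowest array was TCQA replicate 2 for 7 of the 10, and for 5522 of all 22206 gene probe sets. The same array was the lowest of the 4 for Fech and the lower of the TCQA arrays for Ireb2, while the TCQA arrays almost coincided for Hmox2. The part of neurons in these values was not tested.

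Ireb2 (TC0900000664.mm.2) encodes IRP2, the iron regulatory protein that is degraded when iron is plentiful. Its log2 signals were 12.61 and 12.47 with TCQA, against 12.12 and 12.14 in control. Both TCQA arrays lay above both control arrays, by more than the gap between the TCQA arrays. The difference was 0.41 (SE 0.17), 1.33-fold higher with TCQA, and 13.1% of all gene probe sets differed by as much. It lay between 0.34 and 0.48 with each array left out in turn. Among the genes whose messengers IRP2 can bind, those described above differed by -0.13 (Tfrc), -0.12 (Slc11a2), 0.15 (Fth1), 0.31 (Ftl1) and -0.18 (Slc40a1), values of either sign.

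The promoters of the genes that were higher on both TCQA arrays are shown because they are the set that stood apart in one direction. Promoters were listed for 7 of the 10 genes, from RefSeq on GRCm38.p6, and for genes with several listed starts the most downstream was taken. Each sequence below gives the 150 bases before that start, on the + strand: chr16:4756796-4756945 for Hmox2, chr9:54863605-54863754 for Ireb2, chr3:19957099-19957248 for Cp and chr19:9982496-9982645 for Fth1. Capitals mark the GC box GGGCGG, the TATA box TATAAA and the CCAAT box CCAAT, searched on both strands.
Hmox2: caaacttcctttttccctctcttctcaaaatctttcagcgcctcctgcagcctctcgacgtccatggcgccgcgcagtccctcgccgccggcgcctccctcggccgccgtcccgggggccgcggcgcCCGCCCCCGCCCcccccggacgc
Ireb2: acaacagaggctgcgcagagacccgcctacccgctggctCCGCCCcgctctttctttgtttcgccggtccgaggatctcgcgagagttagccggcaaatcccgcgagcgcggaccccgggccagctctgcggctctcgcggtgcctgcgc
Cp: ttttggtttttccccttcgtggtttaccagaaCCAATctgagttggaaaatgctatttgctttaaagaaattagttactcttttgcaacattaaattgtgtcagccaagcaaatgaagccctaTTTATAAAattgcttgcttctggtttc
Fth1: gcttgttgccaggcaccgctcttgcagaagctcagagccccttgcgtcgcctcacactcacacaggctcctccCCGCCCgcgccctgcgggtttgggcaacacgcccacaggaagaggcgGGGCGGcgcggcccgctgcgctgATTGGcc

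The 4 sequences differ in kind. The promoter of Cp held TATAAA at position -25 from the start, overlapped by a match on the other strand at -27, and CCAAT at position -118, with 0 GC boxes. Those of Hmox2, Fth1 and Ireb2 held 2, 2 and 1 GC boxes and 0 TATA boxes, and that of Fth1 also had 1 CCAAT box on the other strand next to the start. Over all 32851 windows of the same length, 28.6% held GGGCGG, 7.57% TATAAA and 24.5% CCAAT. The core TGACNNNGC, the shared part of antioxidant response elements, was in 0 of the 4 windows and in 6.80% of all windows. A match is a run of letters, and binding was not measured here.

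The rest of the pathway was read from 7 lists with 86 symbols, of which 79 had a named probe set. Of these 79, 42 had a higher and 37 a lower mean with TCQA, with a median of 0.02. The groups were apart for 16 in the higher and 8 in the lower direction, where 18.9% and 17.8% of all gene probe sets were. By limma 0 passed with adjustment over all genes, the smallest adjusted p being 0.787, and 0 were higher and 1 was lower at an unadjusted p under 0.05, against 3.38% and 2.86% of all gene probe sets. With 1 array left out that count of 1 became 4 (TCQA replicate 1), 2 (TCQA replicate 2), 0 (control replicate 1) or 5 (control replicate 2). In 29 of the 79 both groups lay below the median negative control, as in 11045 of all 22206 gene probe sets. The values of these 29 are less certain.

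The 1 gene was Nfu1, which encodes a carrier that hands iron-sulphur clusters to mitochondrial enzymes. Its log2 signals were 9.23 and 8.75 with TCQA and 9.62 and 9.59 in control, with both TCQA arrays lower. The difference was -0.61 (SE 0.22, limma adjusted p = 0.787), and -0.37 without TCQA replicate 2. The other 19 measured genes of mitochondrial iron and iron-sulphur clusters went both ways. Slc25a37, the mitoferrin that imports iron into mitochondria, was at 8.30 and 8.31 with TCQA and 8.81 and 8.46 in control, a difference of -0.33 (SE 0.20, limma adjusted p = 0.831). Ciao1, of the cytosolic cluster assembly complex, differed by 0.34 (SE 0.19, limma adjusted p = 0.818).

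The haem synthesis list holds the other enzymes of the pathway together with mitochondrial carriers and regulators. Of its 12 measured genes 9 had a higher and 3 a lower mean with TCQA, where 51.1% of all gene probe sets had a higher one. The median difference of the 12 was 0.07, over a range of -0.35 to 0.38. Slc25a38, the mitochondrial glycine carrier that feeds ALAS, was at 10.08 and 9.98 with TCQA, against 9.90 and 9.48 in control, a difference of 0.34 (SE 0.21, limma adjusted p = 0.831). Clpx, part of the protease that acts on ALAS, differed by 0.24 (SE 0.17, limma adjusted p = 0.850). Uros, which closes the porphyrin ring, differed by 0.38 (SE 0.22, limma adjusted p = 0.826) at a level below the median negative control in both groups. Ppox, the enzyme just before ferrochelatase, is named by role, outside the rule for naming genes. It was at 10.21 and 10.34 with TCQA and 10.35 and 9.99 in control, and its groups overlapped. Of the 12 genes 3, Uros, Slc25a38 and Clpx, had groups apart and higher with TCQA, and 0 apart and lower. Over all gene probe sets these shares were 18.9% and 17.8%.

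Among the genes of haem breakdown and transport 7 of 12 had a higher mean, with a median of 0.02, and 7 of the 12 were dim in both groups. Flvcr1, a haem and choline transporter, was at 10.93 and 10.72 with TCQA and 11.05 and 11.10 in control, a difference of -0.25 (SE 0.18, limma adjusted p = 0.848). Bach1, the haem-sensing repressor of Hmox1, differed by 0.27 (SE 0.22, limma adjusted p = 0.862), and by 0.03 without TCQA replicate 1. Slc46a1, a folate carrier that also takes up haem, differed by -0.33 (SE 0.25, limma adjusted p = 0.850) among the dim genes. Hmox1, the inducible partner of Hmox2, is named for its role. It was dim, at 6.74 and 6.53 with TCQA and 6.92 and 6.50 in control, and its groups overlapped.

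Of 15 genes of iron uptake and reduction 9 had a higher mean, with a median of 0.07. The ferrireductase genes Cybrd1, Steap2 and Steap1 had the smallest p in that list, with differences of 0.46 (SE 0.30), 0.30 (SE 0.23) and 0.29 (SE 0.24), a limma adjusted p of 0.832 or more, and overlapping groups. Control replicate 1 was the lowest array for all 3, as it was for Cp and for 6027 of all 22206 gene probe sets. Trf, the transferrin gene, named for its role, was at 13.79 and 14.06 with TCQA and 13.98 and 13.92 in control.

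In the smaller lists 3 of 6 storage and chaperone genes and 2 of 2 ferroxidase genes were dim in both groups. Of 6 storage and chaperone genes 2 had a higher mean, with a median of -0.19. Pcbp1, which delivers iron to ferritin, was at 10.85 and 11.03 with TCQA and 11.13 and 11.23 in control, a difference of -0.24 (SE 0.18, limma adjusted p = 0.850). Ftmt, the mitochondrial ferritin, and Timd2, a ferritin receptor, differed by -0.30 and -0.34 and were dim in both groups. Heph and Hephl1, the other ferroxidases, were dim and overlapped, with differences of -0.13 and -0.49.

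Among 12 genes of iron regulation 6 had a higher and 6 a lower mean, with a median of 0.02. Bmp6, the signal that raises hepcidin when iron is high, was at 8.23 and 8.23 with TCQA and 7.28 and 8.20 in control. Its difference of 0.49 (SE 0.31, limma adjusted p = 0.832) came from control replicate 1, without which it was 0.03. Hfe, a sensor of transferrin iron, differed by 0.39 (SE 0.17, limma adjusted p = 0.799) and Tmprss6, a protease that lowers hepcidin, by 0.38 (SE 0.24, limma adjusted p = 0.832), both below the median negative control. Aco1, which encodes the other iron regulatory protein, and Fbxl5, which targets IRP2 for degradation, are named for their roles. Aco1 was at 9.48 and 9.53 with TCQA and 9.48 and 9.80 in control, and Fbxl5 at 11.81 and 12.11 with TCQA and 11.88 and 11.92 in control. The groups of both overlapped. Of the 12 genes 5, among them Hfe, Bmp6 and Tmprss6, had groups apart and higher with TCQA, and 1 apart and lower. Over all gene probe sets the shares were 18.9% and 17.8%, so groups apart were not particular to Ireb2.

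**Figure D4:**
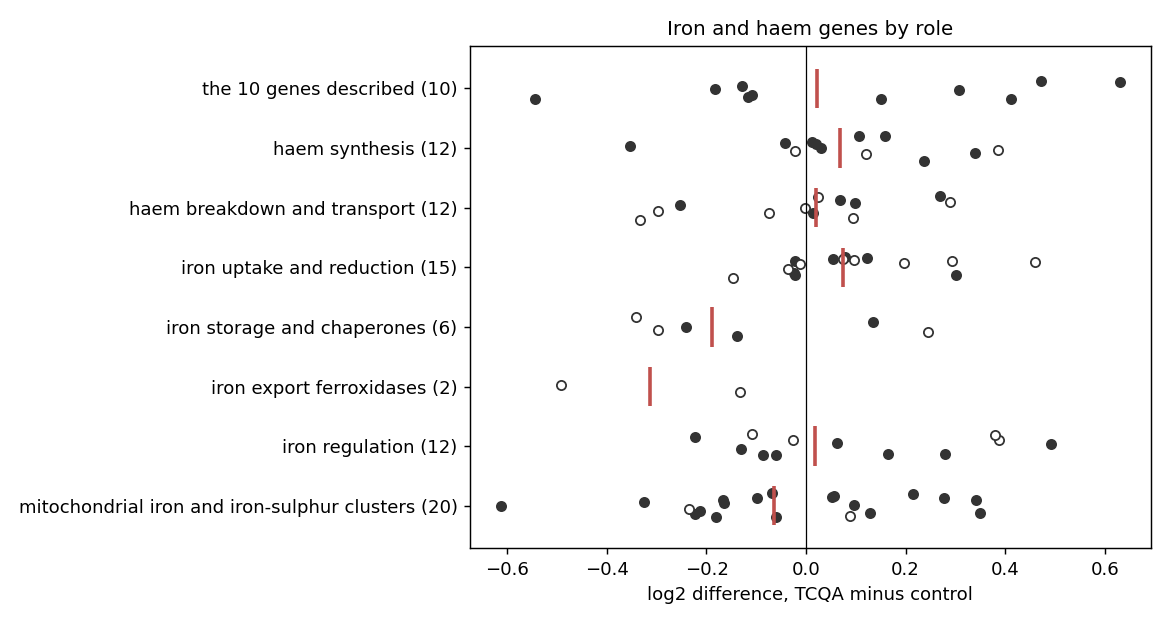
Log2 difference of TCQA minus control for the 10 genes described above and for the genes of the 7 other lists by role, with the number of genes in brackets. Each point is a gene, open where both groups lay below the median negative control, and the red bar is the median of the list, which is 0.02 for the 10 genes and 0.02 over the 79 others.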

How the data were processed

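Values were read from the deposited table of log2 signals, 1 per probe set and array. Per the labels' protocols, the authors amplified 100 ng of RNA and hybridised Clariom S arrays. They made the values with SST-RMA in the Transcriptome Analysis Console (4.0.2). The median gene probe set was at 7.12 to 7.17 on the 4 arrays, so the deposited values did not share exactly the same distribution. The build behind the array annotation was not given in the sources used here. Of 28846 probe sets 6640 were controls, and the other 22206 were tested. The platform annotation named 19572 of these, and 2634 were not named here. Groups came from the sample titles. TCQA was compared with control, two-sided, by limma 3.58.1 in R 4.3.3 (lmFit, eBayes, 2 residual degrees of freedom), with Benjamini-Hochberg adjustment over all 22206. The number of arrays limits precision: the median SE was 0.20, and an exact permutation test of 2 against 2 arrays cannot go below 0.333. The procedure was tested on simulated data.

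The 10 genes and all lists were chosen with earlier results of these data known. Named were the 10 genes, the 3 genes of each pathway list with the smallest unadjusted p, and up to 2 defining markers of a list. The erythroid marker Rhag was named for its difference, and a few genes for their role, all picked after their values were seen. Likeness of patterns was not computed over 4 arrays. Alternatives were a replicate block, centred arrays, quantile normalization, an intensity trend, no moderation, a filter on dim probe sets and leaving out each array. The deviations of same-numbered arrays correlated at 0.05. With 2 arrays per group this cannot settle whether the replicate numbers pair the arrays, and the sample titles do not say.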

Additional observations from a re-analysis of the deposited data

How the results depend on the processing

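Over 7 alternatives each, the differences of the 10 genes kept their direction and moved by less than 1 pooled SD in 64 of 70 cases. That size limit could be passed only with centred arrays or quantile normalization. Leaving out an array cannot move a difference by more than the pooled SD, and the replicate block leaves it the same. Nor can leaving out an array turn the direction of the 5 genes whose groups did not overlap. The count of 64 is therefore largely fixed in advance. Leaving out each array in turn turned the direction of 4 genes, over ranges of -0.26 to 0.0443 for Alas1, -0.0352 to 0.65 for Ftl1, -0.392 to 0.0269 for Slc40a1 and -0.268 to 0.0333 for Slc11a2. With quantile normalization the Fth1 difference was 0, because its rank hardly differed between arrays, and with centred arrays that of Hmox2 was 0.46, a move larger only than its very small SD. Across the alternatives 4 to 6 of the 10 genes had a higher mean. The cause of the other moves was not tested.

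By limma with adjustment 0 gene probe sets passed in every alternative with all arrays, and 0 to 4 with an array left out, the 4 without TCQA replicate 1. The depositors' criterion was met by 25 without moderation, by 41 of the 11161 probe sets left by the dim filter, and by 160 to 291 with an array left out, against 83. Of the 79 pathway genes, 3 had an unadjusted p under 0.05 without moderation and 0 to 5 with an array left out, against 1, and 0 passed with adjustment in any alternative. With the replicate block 0 gene probe sets passed with adjustment and 1425 had an unadjusted p under 0.05, against 1386. It brought those that met the depositors' criterion to 92, against 83. Dim signal limits Slc40a1 and 29 of the 79 pathway genes.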
